A study of Mus musculus with 36 samples.

Results

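The Cyp4a genes encode cytochrome P450 enzymes of the liver and kidney that hydroxylate fatty acids and arachidonic acid at the omega carbon, the end of the chain away from the acid group. The nuclear receptor PPAR alpha, which is activated by fatty acids during fasting and by fibrate drugs, is known to induce Cyp4a10 and Cyp4a14, whereas Cyp4a12a is known for male-predominant expression in liver and kidney. The 6 genes described here (Cyp4a10, Cyp4a12a, Cyp4a12b, Cyp4a14, Cyp4a31 and Cyp4a32) lie side by side on mouse chromosome 4 and were chosen by name, as 6 of 21418 autosomal protein-coding genes. For each gene, every CpG from 5 kb before the gene start to 1 kb past its end was taken, which gave 709 of 18887127 listed autosomal CpGs.

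Liver DNA was read by whole-genome bisulfite sequencing, in which unmethylated cytosines are converted and the share of reads that kept the cytosine is the methylation level of a CpG. The 24 mice formed 8 groups of 3 animals. The parents were inbred C57BL/6N (B6) and C3H/HeN (C3) sires and dams, and their F1 offspring were B6C3F1 sons and daughters (B6 dam, C3 sire) and C3B6F1 sons and daughters (C3 dam, B6 sire), 6 nuclear families in all. The parents were mated at week 10, their litters were weaned at week 16, and each mouse was killed at week 20, so that dams had raised a litter while daughters were virgin. The labels name no transgene and no treatment, and RNA was not measured, so no value below is an expression level. FOXA1 immunoprecipitation samples of the series were not analysed here. A level in whole liver averages over all cells and both alleles, so that a shift in the makeup of cells and a change within cells cannot be told apart.

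Between 365740739 and 619888157 counts on autosomal CpGs were available per animal, or 19.36 to 32.82 reads per CpG, and the autosomal methylation level ranged from 75.05 to 77.53%. Start regions (1 kb either side of the gene start) of 7 hepatocyte marker genes had a median level of 34.05% (3.175 to 53.17%), against 16.64% over all genes. The median was 82.91% for 5 leukocyte markers and 60.81% for 4 markers of brain glia and muscle (Gfap, Mbp, Ckm and Myh6, which ranged from 11.61 to 83.06%). Of these markers 0 were called in any of the 7 comparisons made, against 1.68% of start regions between strains. Yet each hepatocyte marker was higher in B6 than in C3 parents (median 4.01 points) and each leukocyte marker lower (median -2.43), against -0.33 over all genes. Fgb (7.32 points, adjusted p = 0.0139) and Serpina1a (6.44, 0.0374) passed 0.05 in the quasi-binomial model. A strain difference in the makeup of cells was not tested.

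All coordinates are in mm9. Cyp4a12a, on the plus strand, spans chr4:114971651-115005420 and Cyp4a12b, also plus, chr4:115084229-115111639. Cyp4a14 is the only member on the minus strand, at chr4:115158805-115168747. Cyp4a10, at chr4:115190869-115206254, Cyp4a31, at chr4:115236254-115251618, and Cyp4a32, at chr4:115273574-115294207, follow on the plus strand. By coding sequence the members fell into near-identical groups. Cyp4a12a and Cyp4a12b shared 98.5% of aligned coding bases, Cyp4a10, Cyp4a31 and Cyp4a32 shared 96 to 97.2%, and every other pair shared 76.1 to 80.6%. A read from such a copy may be placed on another member; how reads were divided among the copies was not tested.

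The sequences below carry the results that follow. The first pair shows the CpGs upstream of the Cyp4a12 genes, which face each other in an alignment and differed by sex, and the capitals mark the listed CpG in each.
Cyp4a12a, 711 bp before the start, chr4:114970890-114970991, plus strand: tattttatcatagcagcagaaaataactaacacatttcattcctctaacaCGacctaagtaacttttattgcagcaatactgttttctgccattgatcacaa
Cyp4a12b, 734 bp before the start, chr4:115083445-115083546, plus strand: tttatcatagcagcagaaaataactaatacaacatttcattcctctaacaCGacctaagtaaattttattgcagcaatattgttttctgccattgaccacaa
With gaps allowed, 99 bases of these 102-base stretches could be aligned, with 4 mismatches and 6 gap bases, so 96% of aligned bases were identical. Over 1000 bp on either side the identity was 82.6%. No base that differs between B6 and C3 is listed within the printed stretches.

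The next sequences are from introns of the Cyp4a12 genes, shown because the CpG in capitals differed between the sexes in Cyp4a12a and between the strains in Cyp4a12b.
Cyp4a12a, 16614 bp after the start, chr4:114988235-114988296, plus strand: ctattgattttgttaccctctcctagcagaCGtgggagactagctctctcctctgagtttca
Cyp4a12a, 24139 bp after the start, chr4:114995760-114995821, plus strand: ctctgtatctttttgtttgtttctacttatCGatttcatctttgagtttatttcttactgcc
Cyp4a12b, 18200 bp after the start, chr4:115102399-115102460, plus strand: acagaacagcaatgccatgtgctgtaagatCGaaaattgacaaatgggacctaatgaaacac
The following stretch of coding exon and adjoining intron is almost the same in 3 members, and the CpG in capitals differed between the strains or the sexes in each of them.
Cyp4a10, 1504 bp after the start, chr4:115192343-115192404, plus strand: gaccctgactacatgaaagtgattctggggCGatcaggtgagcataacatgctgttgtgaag
Cyp4a31, 1499 bp after the start, chr4:115237723-115237784, plus strand: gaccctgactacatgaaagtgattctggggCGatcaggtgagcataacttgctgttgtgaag
Cyp4a32, 1429 bp after the start, chr4:115274973-115275034, plus strand: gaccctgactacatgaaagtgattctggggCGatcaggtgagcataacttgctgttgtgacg
The last is the 250 bases before the start of Cyp4a14, with the single listed CpG of this stretch, 18 bp before the start, in capitals.
Cyp4a14 upstream, chr4:115168748-115168997, minus strand: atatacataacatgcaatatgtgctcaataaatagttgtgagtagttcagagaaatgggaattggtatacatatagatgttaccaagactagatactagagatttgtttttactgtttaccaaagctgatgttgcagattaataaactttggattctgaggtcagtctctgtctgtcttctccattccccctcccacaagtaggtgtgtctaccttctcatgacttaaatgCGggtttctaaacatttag

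The 6 regions cover 158509 bp and hold 4.47 listed CpGs per kb, against 7.89 over the autosomes. The authors kept a CpG only if both strains have it and most mapped bases of each strain matched it, and a match on a single strand was enough. Of 874 CG dinucleotides in the mm9 sequence of the regions, 709 (81.1%) were listed in the deposited counts, against 92.7% over the autosomes. The share was lowest in Cyp4a32, with 102 of 211 CGs listed (48.3%), and ranged from 86.0% in Cyp4a12b to 100% in Cyp4a14 for the others. Single-base differences between B6 and C3 numbered 154, or 0.972 per kb, against 1.17 per kb over the autosomes. Cyp4a32 held 29 of these differences. For this gene in particular, the CpGs described are fewer than those it has, and why the others were not listed was not tested.

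Most of the cluster was methylated. Averaged over the 24 animals, 587 CpGs were above 70%, 79 were between 30 and 70%, and 43 were below 30%. The CpGs below 30% lay within 2 kb of the start in 7 of 7 cases in Cyp4a14, 9 of 10 in Cyp4a10, 7 of 12 in Cyp4a31 and 10 of 12 in Cyp4a32. On this average over both sexes, neither Cyp4a12a nor Cyp4a12b had a CpG below 30% within 2 kb of its start. Some males did: at 711 bp before Cyp4a12a sires averaged 17.3% and sons 19.8%. At 734 bp before Cyp4a12b B6 sires averaged 16.4%. The start regions ranged accordingly. That of Cyp4a10, an enzyme induced by PPAR alpha, was lowest, at 23.73 ± 1.78% (SD, n = 6) in B6 and 25.62 ± 7.15% in C3 parents. Cyp4a32 followed with 39.09 ± 4.52% in B6 and 31.9 ± 5.1% in C3. In C3 these genes overlapped (16.8 to 33.5% in Cyp4a10, 23.1 to 38.6% in Cyp4a32), and C3 sires averaged 30.98 and 29.82%, in the other order. The start region of Cyp4a31 was at 60.0 ± 2.93% in B6 and 63.92 ± 5.19% in C3, which did not differ beyond its spread from that of Cyp4a14 in B6 (61.61 ± 5.38%). Those of Cyp4a14 in C3 (80.42 ± 3.83%) and of Cyp4a12a (75.69 ± 12.3% in B6, 78.12 ± 8.97% in C3) were the highest. The start region of Cyp4a12b held a single listed CpG and was not tested.

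**Figure D1:**
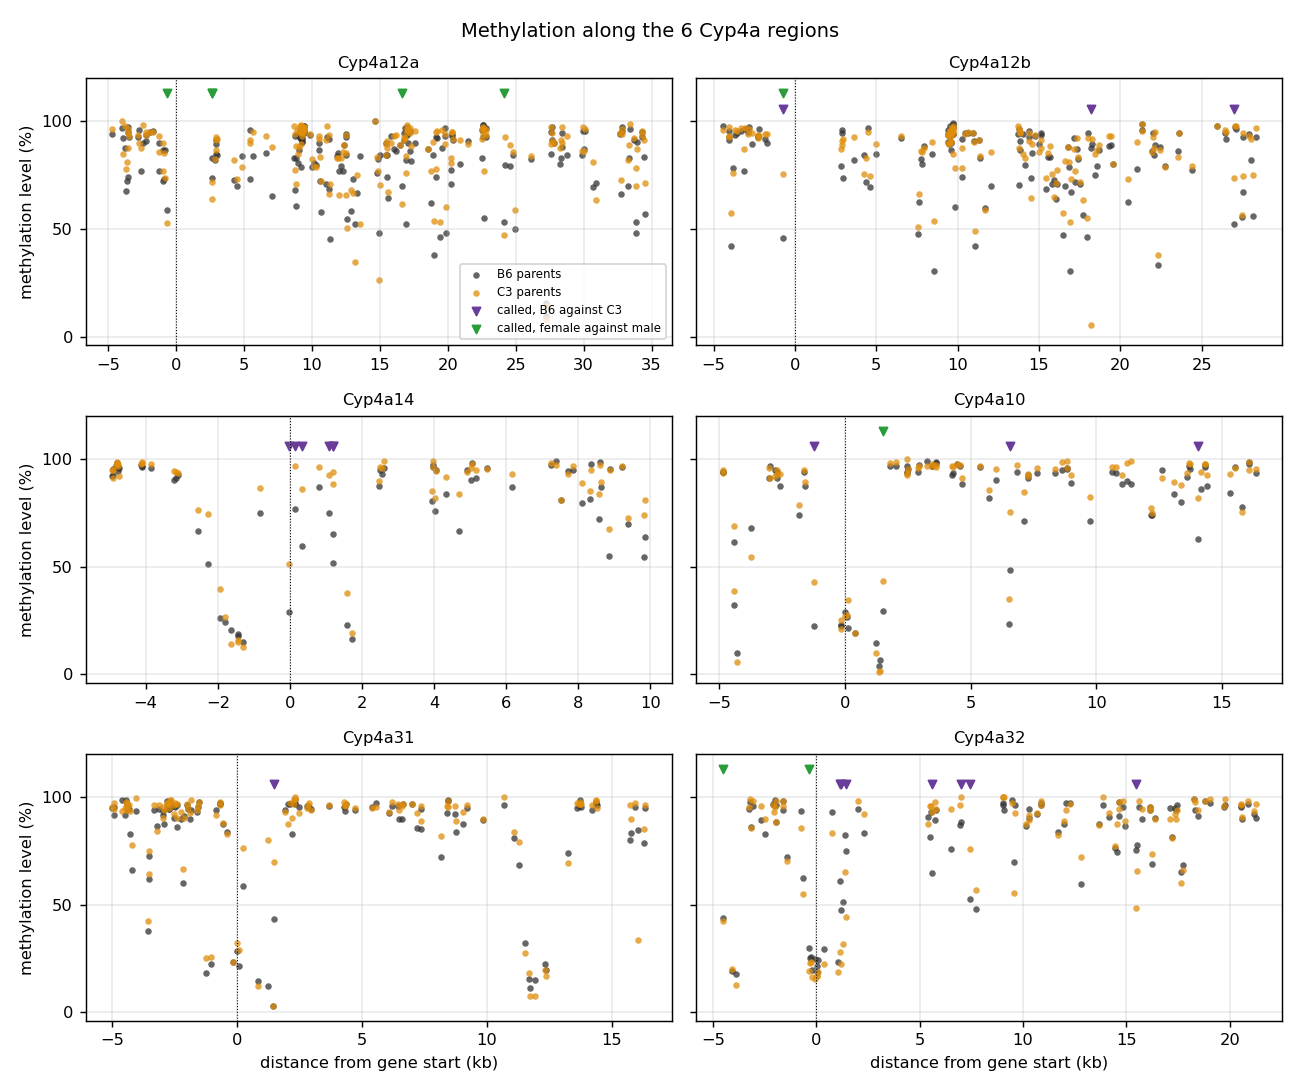
Methylation level (%) of each listed CpG against its distance from the gene start (kb) in the 6 regions, as the mean of sires and dams of B6 (dark) and C3 (orange), with triangles above the CpGs called between strains or between sexes. Low CpGs gather around the starts of Cyp4a14, Cyp4a10, Cyp4a31 and Cyp4a32, where 7, 9, 7 and 10 CpGs within 2 kb were below 30%. On these means of both sexes they are absent around the starts of the Cyp4a12 genes.

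Read depth was compared between the strains, since a gene that one strain holds in more copies would be read more deeply there. In B6 the mean depth per CpG ranged from 26.1 ± 3.92 reads (SD, n = 6) at Cyp4a12a to 30.9 ± 3.08 at Cyp4a10. In C3 it ranged from 22.7 ± 3.24 at Cyp4a12a to 30.2 ± 4.78 at Cyp4a10. The F1 animals lay between 23.2 ± 3.49 (Cyp4a12a, C3B6F1) and 31.9 ± 3.35 (Cyp4a10, B6C3F1). Cyp4a12a had the lowest mean and Cyp4a10 the highest in each strain and cross, although neighbours in that order, such as Cyp4a10 and Cyp4a14 (29.0 ± 4.82 and 28.9 ± 5.13 in C3B6F1), differed by less than their spread.

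After scaling each animal to its own depth on autosomal CpGs, the B6 to C3 ratio of depth was 1.10 for Cyp4a32 (adjusted p = 0.00389, limma), 1.05 for Cyp4a12a (0.0449), 1.00 for Cyp4a31 (0.95), 0.991 for Cyp4a14 (0.752), 0.961 for Cyp4a12b (0.249) and 0.941 for Cyp4a10 (0.0386). With a call set at an adjusted p below 0.05 and a ratio that differs from 1 by at least 0.322 on the log2 scale, 0 of 6 members were called in this or any other comparison, whereas 8.16% of 21262 genes were called between B6 and C3. At an adjusted p below 0.05 alone, 3 of 6 members passed, against 43.1% of all genes, and scaled to the depth of chromosome 4 the Cyp4a12a value no longer did (adjusted p = 0.0816, limma). No member's depth thus differed between the strains by the ratio required. Depth was taken over listed CpGs only, in Cyp4a32 102 of 211 CGs, so depth at the unlisted ones was not tested.

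**Figure D2:**
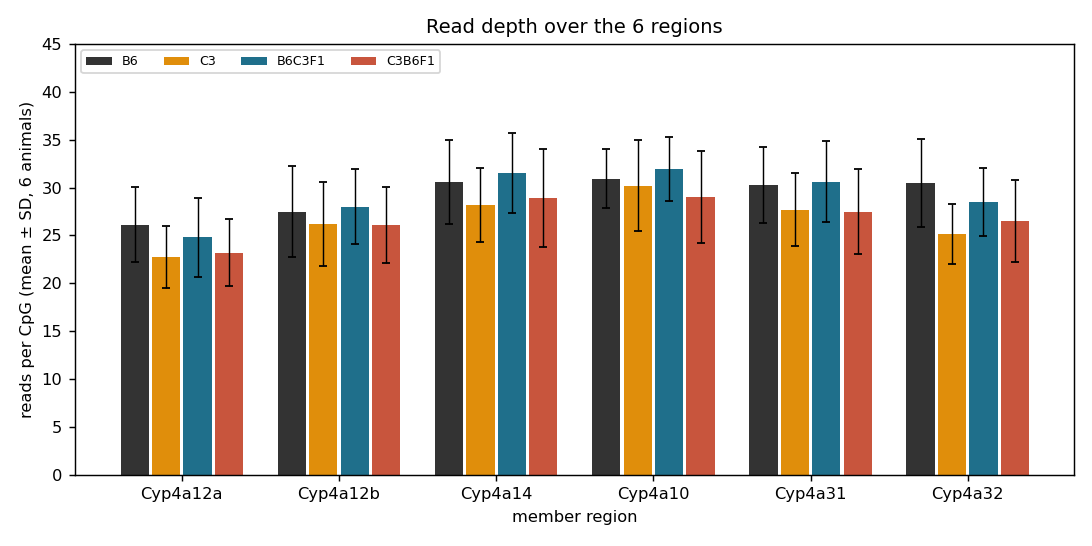
Reads per CpG (y axis) over each of the 6 regions (x axis), with bars for the mean and error bars for the SD of B6, C3, B6C3F1 and C3B6F1 animals (n = 6 each). The strains overlap at each gene, with Cyp4a12a shallowest (26.1 reads in B6, 22.7 in C3).

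Sex differences were the largest at Cyp4a12a. At the CpG 711 bp before its start, the level in B6 was 33.3, 8.33 and 15.8% in the 3 sires and 88.9, 100 and 100% in the 3 dams. In C3 it was 31.2, 0 and 15.4% in sires and 83.3, 100 and 83.3% in dams. The highest sire (33.3%) was thus far below the lowest dam (83.3%), and the sexes did not overlap in either strain.

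The offspring showed the same order. B6C3F1 sons had 11.8, 8.33 and 0% and B6C3F1 daughters 54.5, 80 and 80%. C3B6F1 sons had 29.4, 31.6 and 37.5% and C3B6F1 daughters 71.4, 80.8 and 80%. Every daughter was above every son, although the daughters were lower than the dams at this CpG, with a median of 80% against 94.4%. Dams exceeded sires by 74.47 percentage points (SE 5.13, adjusted p = 4.93e-43, quasi-binomial model), and daughters exceeded sons by 56.56 points (SE 6.07, adjusted p = 1.56e-16). An exact two-sided permutation test over animals gave p = 0.00216 for each, the smallest that 6 against 6 animals allow.

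The difference of female minus male at this CpG was 78.21 ± 6.62 points (SE) for B6, 70.74 ± 7.83 for C3, 66.65 ± 8.14 for B6C3F1 and 46.47 ± 9.0 for C3B6F1. The sex difference of B6 minus that of C3 was 7.48 ± 10.3 points (SE, adjusted p = 1), and the sex difference of parents minus that of offspring was 17.91 ± 7.94 points. The depth was low, at 7 to 26 reads per animal: 0 of 11 methylated reads in a C3 sire allow a level of up to 27.3%. The nearest base that differs between the strains lay 1967 bp away. The other 4 listed CpGs within 1 kb of the start ranged from 65.71 to 96.36% over the 8 groups.

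A second strongly sex-divided CpG lay in an intron of Cyp4a12a, 24139 bp after the start. Sires had 23.9, 29.6 and 30.4% in B6 and 11.8, 12.5 and 10.5% in C3. Dams had 92.3, 66.7 and 68% in B6 and 83.3, 75 and 91.7% in C3. The highest sire was at 30.4% and the lowest dam at 66.7%, so that the sexes were apart in both strains.

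Sons ranged from 13.6 to 42.9% with a median of 18.7%, and daughters from 57.1 to 88.9% with a median of 67.5%. The difference was 62.32 ± 5.26 points (SE) between dams and sires (adjusted p = 3.06e-28) and 51.0 ± 5.77 points between daughters and sons (adjusted p = 1.08e-14). The exact permutation p was 0.00216 for both. By strain or cross it ranged from 49.23 points in B6C3F1 to 71.97 points in C3.

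At 16614 bp after the start, also in an intron, a CpG was called between the sexes in offspring and not in parents. Sons had 43.8, 23.7 and 31.8% in B6C3F1 and 44.4, 38.5 and 46.2% in C3B6F1, and daughters 75, 80 and 80.8% and 80.8, 93.1 and 92%, with no overlap. Sires ranged from 41.9 to 76.5% (median 57.0%) and dams from 58.8 to 88.0% (median 72.4%), which overlapped. Daughters exceeded sons by 46.61 ± 5.24 points (SE, adjusted p = 6.25e-15, exact p = 0.00216), and the sex difference of parents minus that of offspring was -30.65 ± 7.74 points. The choice of this CpG by its call in the offspring favours such a gap.

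A further pair of intron CpGs, 2602 and 2651 bp after the start, passed the test in the offspring. At the first, sons ranged from 43.8 to 68.8% and daughters from 76.7 to 90.9% (26.55 points, adjusted p = 2.92e-05). At the second, sons ranged from 48.3 to 64.3% and daughters from 75 to 93.5% (27.3 points, adjusted p = 2.58e-06). Their sexes did not overlap in the offspring. At the second CpG dams exceeded sires as well, by 18.28 points (adjusted p = 0.00189), with 2.57 ± 5.29 points (SE) in B6 and 33.99 ± 5.83 in C3, and the test of that difference between strains gave an adjusted p of 0.337. The matching positions of Cyp4a12b, in stretches that are 98 and 95.1% identical, have no CG.

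In Cyp4a12b, the near-identical neighbour, the facing upstream CpG, 734 bp before the start, was called both by sex and by strain. B6 sires had 29.4, 5.88 and 13.8%, and B6 dams 70.8, 87 and 57.9%. C3 sires had 64.3, 84.6 and 66.7%, and C3 dams 83.8, 80.8 and 78.3%. B6 sires thus stood below all other parents, while the other 9 parents overlapped.

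B6C3F1 sons had 43.3, 71.1 and 35.7% at that CpG and B6C3F1 daughters 73, 62.5 and 76.5%. C3B6F1 sons had 44.4, 57.1 and 28% and C3B6F1 daughters 72.2, 80 and 71.4%. In C3B6F1 the sexes did not overlap, and in B6C3F1 a son at 71.1% overlapped the daughters. Dams exceeded sires by 32.86 points (adjusted p = 4.76e-07, exact p = 0.0498) and B6 parents were below C3 parents, with a B6 minus C3 difference of -29.78 points (SE 5.24, adjusted p = 3.61e-06, exact p = 0.0519). The sex difference was 53.98 ± 7.19 points (SE) in B6 and 11.75 ± 7.63 in C3, and these differed by 42.22 points (adjusted p = 0.308), which did not pass the threshold. Bases that differ between B6 and C3 lay 197, 419 and 445 bp from the CpG on its downstream side.

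**Figure D3:**
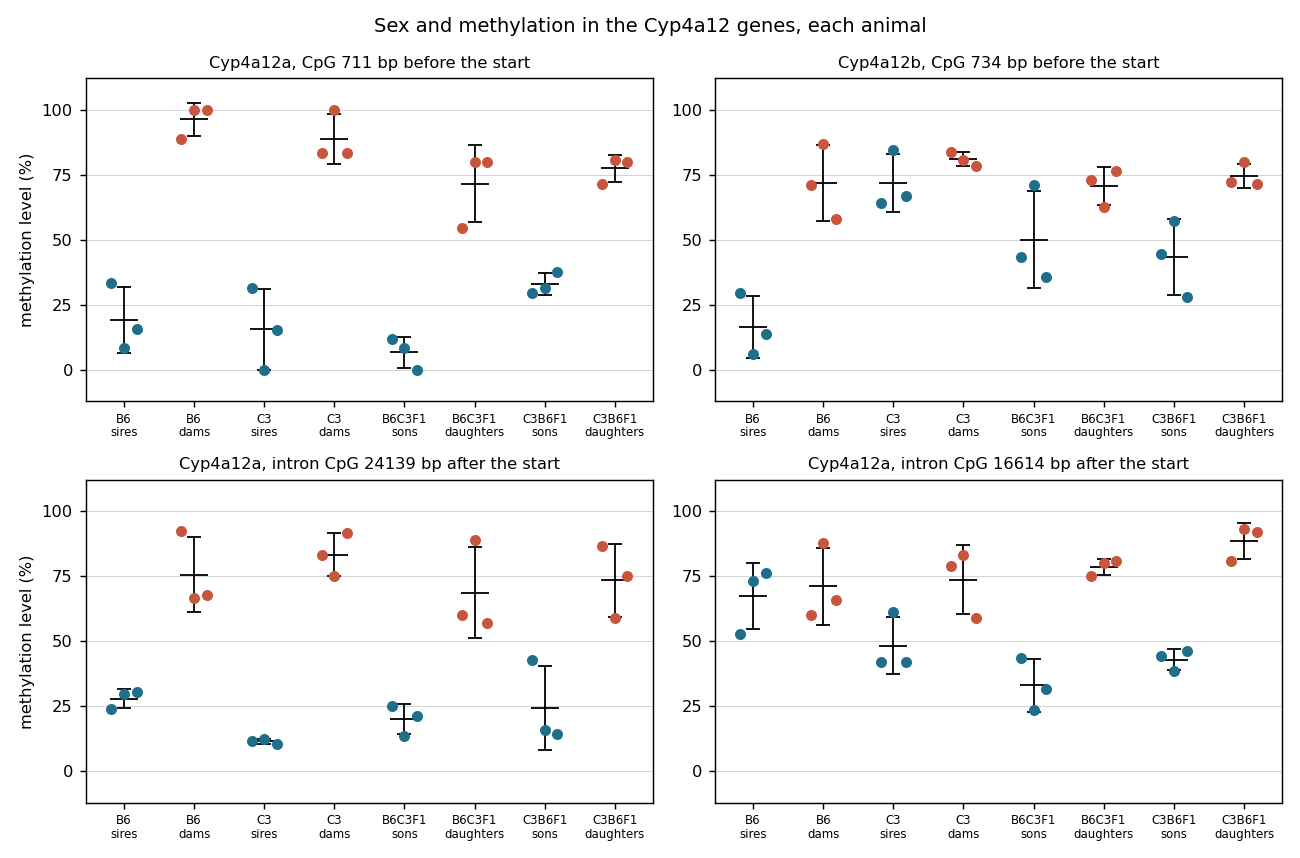
Methylation level (%) in each of the 24 animals at 4 CpGs of the Cyp4a12 genes by group, with males in blue, females in red, and bars for mean and SD (n = 3). At 711 bp before the start of Cyp4a12a every female (54.5% or more) is above every male (37.5% or less), while at 734 bp before the start of Cyp4a12b the B6 sires are lowest (5.88 to 29.4%) and C3 sires reach 84.6%.

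Across the 6 members, 5 of 688 tested CpGs (0.727%) were called between dams and sires at an unadjusted p below 1e-05, against 0.211% of 17983268 CpGs over the autosomes. Of these, 3 were in Cyp4a12a and 1 in Cyp4a12b, all higher in dams, and 1 in Cyp4a10, higher in sires. Between daughters and sons 7 CpGs were called (1.02%, against 0.108% over the autosomes), 5 in Cyp4a12a and 2 in Cyp4a32, all higher in daughters. With the dispersion of each CpG estimated alone, 2 of the 5 and 3 of the 7 were called, all in Cyp4a12a. These 9 CpGs were singled out because they passed the threshold, so their values are described with the choice already made. The sex difference of parents minus that of offspring was computed for called CpGs only, with no share over the autosomes.

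The start region of Cyp4a12a, with 5 CpGs, includes the CpG at 711 bp before the start. It was at 68.81 ± 5.96% in sires and 85.0 ± 6.53% in dams (SD, n = 6), without overlap. The difference of 15.69 ± 3.55 points (SE) was called (adjusted p = 0.0467, quasi-binomial model over 20822 start regions, exact p = 0.00216), as was that of 0.235% of start regions. It was close to the threshold: in 18 of 24 fits without 1 animal it was not called, with adjusted p up to 0.148 (without B6 sire 3), and from 2 kb before to 500 bp after the start the difference was 6.11 points (adjusted p = 0.243). Sons were at 72.76 ± 3.83% and daughters at 83.39 ± 6.4%, a difference of 11.07 points with an adjusted p of 0.519. The other 4 CpGs of this region in Cyp4a12a differed between dams and sires by -9.90 to 7.28 points (adjusted p of 0.757 to 0.972), against 74.47 points at the CpG named.

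Of 107 windows of 1 kb with at least 3 CpGs in the regions, 0 were called between dams and sires (quasi-binomial model, adjusted p below 0.05 and at least 20 points), against 0.0657% of 1964408 windows over the autosomes. Likewise 0 of 107 were called between daughters and sons, against 0.0333%. Within the regions, calls by sex were thus made at single CpGs and at the start region of Cyp4a12a, which holds 1 of them, and for no window at this threshold.

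Outside the regions, 133 windows of the same kind lay between them and the neighbouring genes, and 2 of these were called by sex, against the shares of all windows just given. In chr4:114952001-114953000, which ends 18651 bp before the start of Cyp4a12a, 5 CpGs averaged 31.03 ± 7.12% in sires and 66.75 ± 6.04% in dams, 29.75 ± 7.79% in sons and 53.09 ± 5.09% in daughters (SD, n = 6). Dams exceeded sires by 34.3 points (adjusted p = 1.06e-11) and daughters exceeded sons by 22.81 points (adjusted p = 3.85e-06). In chr4:114958001-114959000, ending 12651 bp before the start, 5 CpGs averaged 28.03 ± 7.87% in sires, 58.86 ± 6.31% in dams, 23.43 ± 9.51% in sons and 46.13 ± 6.58% in daughters. Dams exceeded sires by 30.73 points (adjusted p = 1.46e-11) and daughters exceeded sons by 22.4 points (adjusted p = 9.74e-08). In both windows each female was above each male of her generation. Between the strains 1 of the 133 windows was called, chr4:115037001-115038000, where 4 CpGs averaged 61.35 ± 4.61% in B6 and 83.51 ± 4.99% in C3 (SD, n = 6), a difference of -22.13 points (adjusted p = 4.81e-11), against the 0.345% of all windows called between strains. These windows were named after their values were seen.

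At Cyp4a10, the single sex-called CpG went the other way. It lies in a coding exon 1504 bp after the start, in the first of the 3 near-identical exon stretches printed above. Sires had 32.4, 26.5 and 48.5% in B6 and 50, 56.7 and 75% in C3, and dams 21.2, 19.4 and 29.4% in B6 and 19.6, 42.3 and 20% in C3. The difference of dams minus sires was -23.91 points (adjusted p = 0.000504, exact p = 0.0195), although the sexes overlapped. Sons ranged from 28.9 to 56.2% (median 38.0%) and daughters from 17.1 to 33.3% (median 29.0%).

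At Cyp4a32, 2 upstream CpGs were higher in daughters than in sons. At 4541 bp before the start sons ranged from 16 to 32.4% and daughters from 41.4 to 72.0%, a difference of 25.53 points, and sires (17.2 to 42.4%) were below dams (50 to 63.2%) without overlap. At 338 bp before the start sons had a median of 16.3% and daughters one of 43.2%, with overlap, a difference of 23.69 points. In the parents the order at that CpG was not seen, with medians of 24.3% in sires and 18.6% in dams, and the sex difference of parents minus that of offspring was -25.83 ± 6.77 points (SE). The CpG was chosen by its call in the offspring, which favours such a gap.

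Between the strains, B6 and C3 parents differed at 20 of 688 CpGs (2.91%), against 0.719% over the autosomes. B6 was lower at 15 of them and higher at 5. By member, 7 were in Cyp4a32, 6 in Cyp4a14, 3 each in Cyp4a12b and Cyp4a10, 1 in Cyp4a31 and 0 in Cyp4a12a, where 40 of 182 CpGs had an unadjusted p below 0.05, as did 9.59% of CpGs over the autosomes. With the dispersion of each CpG estimated alone, 2 of the 20 were called, at 18200 bp in Cyp4a12b and 1206 bp in Cyp4a14, and none in Cyp4a10, Cyp4a31 or Cyp4a32. The level of the 12 F1 animals lay between those of the parents at 20 of 20 CpGs. The median share of the way from C3 to B6 was 0.65, and shares ranged from 0.0459 to 0.898. The nearest base that differs between the strains lay 36 to 1381 bp away, with a median of 397.5 bp.

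Cyp4a14, the PPAR alpha target on the minus strand, was the only member with strain-called windows. They held 6 called CpGs, at and just past its start, all lower in B6, beside CpGs that were not called. At 18 bp before the start, within the upstream sequence printed above, B6 sires had 29.4, 30.2 and 28.2% and B6 dams 25.5, 30 and 31.7%. C3 sires had 51.2, 40 and 45.7% and C3 dams 60.9, 55.6 and 51.7%. The highest B6 animal was at 31.7% and the lowest C3 animal at 40.0%, and the F1 animals ranged from 24 to 47.7%. The difference was -22.32 points for B6 minus C3 (adjusted p = 0.000101, exact p = 0.00216).

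At 147 bp after the start B6 ranged from 56.5 to 92.6% (median 76.1%) and C3 from 89.7 to 100% (median 98.6%). At 337 bp B6 ranged from 51.7 to 69.0% and C3 from 71.0 to 96.7%. At 1087 bp B6 ranged from 67.9 to 88.0% and C3 from 88.1 to 100%. The strains overlapped at the first of these CpGs and not at the others.

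At 1192 bp B6 ranged from 42.3 to 61.5% (median 50.9%) and C3 from 80.6 to 100% (median 87.5%), a difference of -36.99 points (adjusted p = 2.51e-12), the largest of the 6. At 1206 bp B6 ranged from 50 to 76.9% (median 68.5%) and C3 from 89.5 to 97.0% (median 95.1%), a difference of -29.13 points (adjusted p = 2.03e-09). The strains were apart at both, and the F1 medians of 64.2 and 78.7% lay between them.

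The 1 kb windows that hold these CpGs were called, as 2 of 107 windows in the 6 regions, against 0.345% of 1964408 windows over the autosomes. In chr4:115167001-115168000, where only the CpGs at 1087, 1192 and 1206 bp were called, the 6 listed CpGs averaged 54.38 ± 6.06% in B6, 76.92 ± 5.02% in C3 (SD, n = 6) and 62.64 ± 6.48% in F1 animals (n = 12), a difference of -22.58 points (adjusted p = 4.84e-09). In chr4:115168001-115169000 the 3 CpGs averaged 50.58 ± 6.67% in B6, 75.59 ± 4.03% in C3 and 60.48 ± 3.56% in F1 animals, a difference of -25.09 points (adjusted p = 1.92e-09).

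The start region of Cyp4a14 was also the only one of the 5 tested that was called between strains, against 1.68% of 20822 start regions. B6 was at 61.61 ± 5.38% and C3 at 80.42 ± 3.83%, and the F1 animals at 69.68 ± 4.23% were between them. The difference of -18.82 ± 2.32 points (SE) had an adjusted p of 6.04e-06 and an exact p of 0.00216, with no overlap. Taken from 2 kb before to 500 bp after the start, the Cyp4a14 difference was -6.7 points (adjusted p = 0.0348) and no longer called, while that of Cyp4a12b, which then had enough CpGs to be tested, was called (-12.31 points, adjusted p = 0.0127). Within 1 kb either side of the Cyp4a14 start, dams and sires did not pass the test (1.79 points, adjusted p = 0.883).

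**Figure D4:**
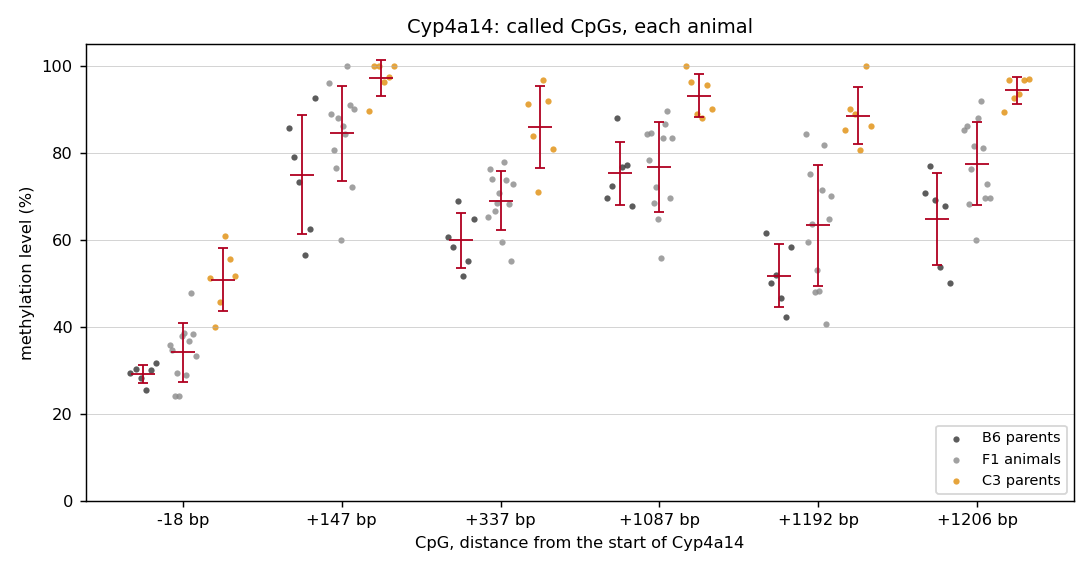
Methylation level (%) in each animal at the 6 called CpGs of Cyp4a14, by distance from the start (bp), in B6 parents (n = 6), F1 animals (n = 12) and C3 parents (n = 6), with bars for mean and SD. The mean of B6 is lowest and that of C3 highest at each CpG. At 1192 bp B6 and C3 animals are apart (42.3 to 61.5% against 80.6 to 100%). Single F1 animals overlap B6. At 1087 bp the means of B6 (75.3 ± 7.24%) and F1 animals (76.8 ± 10.4%) differ by less than their SD.

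In Cyp4a12b the widest strain difference of the cluster was at a single intron CpG, 18200 bp after the start. B6 sires had 87.2, 79.4 and 100% and B6 dams 79.5, 100 and 92.9%. C3 sires had 0, 0 and 5.88% and C3 dams 15.8, 3.7 and 0%. The B6C3F1 animals ranged from 42.9 to 72.7% and the C3B6F1 animals from 38.2 to 55.9%. By these counts B6 was nearly fully methylated, C3 nearly unmethylated, and each F1 animal was between them.

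The difference at that CpG was 82.37 ± 3.19 points (SE, adjusted p = 1.61e-143, exact p = 0.00216), and the F1 level of 49.6% differed from the middle of the parents by 3.19 ± 3.12 points. The nearest listed base that differs between the strains was 876 bp away. Since the authors' filter asked for a match on only a single strand, an unlisted base difference at this CpG was not tested. The copy of this CpG in Cyp4a12a, in a stretch 96.1% identical, was at 83.67 to 95.31% in all 8 groups. Cyp4a12b also held a CpG in an exon, 26986 bp after the start, with a difference of -21.73 points (adjusted p = 0.001, exact p = 0.0346), where B6 (36.8 to 83.3%) and C3 (60.0 to 85.7%) overlapped.

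The exon CpG shared by Cyp4a10, Cyp4a31 and Cyp4a32 differed between strains in unlike directions. In Cyp4a31 B6 ranged from 37.5 to 50% and C3 from 55.6 to 83.3%, a difference of -26.41 points (adjusted p = 2.15e-05, exact p = 0.00216). In Cyp4a32 B6 sires had 71.9, 65.8 and 52.4% and B6 dams 85.7, 81.2 and 87.1%, while C3 sires had 30.8, 32 and 60% and C3 dams 54.2, 44.4 and 44.4%, a difference of 30.61 points (adjusted p = 1.1e-06, exact p = 0.00649). In Cyp4a10 the strains differed by -14.04 points (adjusted p = 0.14), which did not pass the threshold. B6 was therefore lower than C3 at this CpG in Cyp4a31 and higher in Cyp4a32. The 102-base stretches around it were 95.1 to 98% identical between members, and what misplaced reads contributed was not tested.

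**Figure D5:**
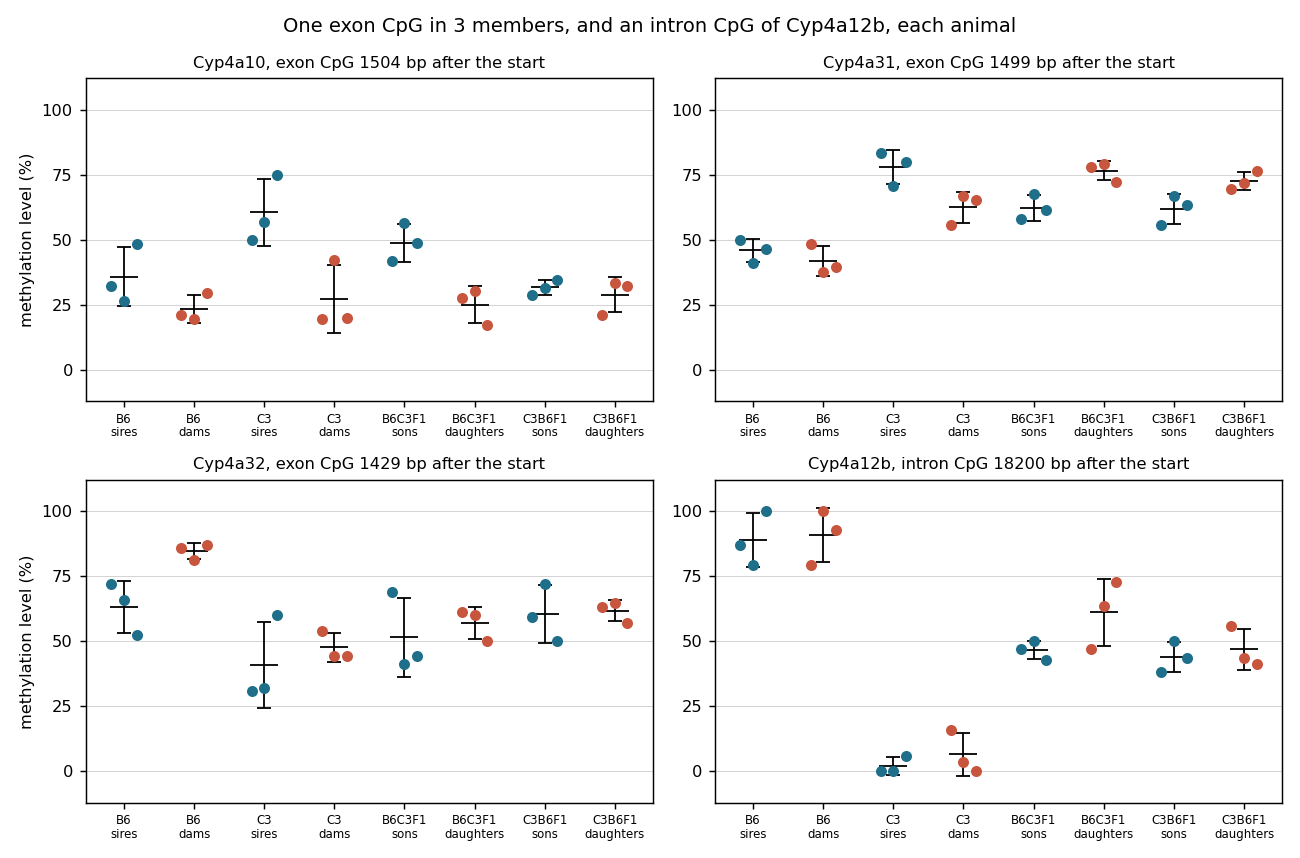
Methylation level (%) in each of the 24 animals by group at the exon CpG shared by Cyp4a10, Cyp4a31 and Cyp4a32 and at the intron CpG 18200 bp after the start of Cyp4a12b, with bars for mean and SD (n = 3). At the intron CpG the B6 animals lie at 79.4% or above, the C3 animals at 15.8% or below and the F1 animals between 38.2 and 72.7%.

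The other strain-called CpGs of Cyp4a10 were lower in B6. They lay 1254 bp before the start (22.7% in B6, 43.0% in C3 and 25.2% in F1 animals, over pooled reads), 6573 bp after it in a coding exon (48.4, 75.3 and 58.1%) and 14056 bp after it in an intron (62.9, 82.2 and 73.5%). The copies of the second CpG in Cyp4a31 and Cyp4a32, in stretches 95.1 and 98% identical, were at 88.39% or above in all 8 groups.

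Cyp4a32 had calls in both directions. B6 was higher at 1122 bp after the start (60.9% against 28.0% in C3 and 49.1% in F1 animals), at 1167 bp (47.7, 22.4 and 41.1%) and at 15441 bp (75.2, 48.3 and 59.1%), as it was at the exon CpG. B6 was lower at 5574 bp (64.8, 93.2 and 68.9%), at 6991 bp (88.1, 100 and 91.4%) and at 7434 bp (52.4, 75.8 and 64.3%). B6 and C3 animals did not overlap at these 6 CpGs. In the whole start region the difference of 7.26 points had an adjusted p of 0.039 and stayed under the 10 points required. The 102 bases around the CpG at 1122 bp were 100% identical to a stretch of Cyp4a31, whose facing CG was not listed. Around that at 1167 bp they were 98% identical. The facing CpG of Cyp4a31 did not have the reads needed in every group and was not tested, so its levels may rest on few reads. They were 14.13 and 9.804% in B6 sires and dams and 100 and 60% in C3. In the F1 groups they were 14.71 to 17.39%, near B6 and not midway. What misplaced reads contributed to these calls was not tested.

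Over whole regions the differences were small. B6 was lower than C3 in 5 of 6 members at an adjusted p below 0.05, and 28.3% of all genes passed that threshold in either direction. The B6 minus C3 difference was -6.35 points in Cyp4a14 (adjusted p = 1.08e-06), -3.98 in Cyp4a10 (adjusted p = 0.000186), -3.84 in Cyp4a12a (adjusted p = 6.21e-07), -2.48 in Cyp4a31 (adjusted p = 0.00211) and -2.29 in Cyp4a12b (adjusted p = 0.00244). Cyp4a32 differed by 1.51 points (adjusted p = 0.119). With at least 10 points required, 0 of 6 were called, against 0.537% of 21223 genes. In the other comparisons, Cyp4a32 was higher in dams than sires by 2.38 points (adjusted p = 0.0298, against 12.7% of genes at this threshold), and the dams minus daughters difference in Cyp4a12a was -1.51 points (adjusted p = 0.0253, against 3.87%).

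Dams, which had raised a litter, and virgin daughters differed at 1 of 688 CpGs (0.145%), against 0.0520% over the autosomes. It was the exon CpG of Cyp4a31, where dams had 48.3, 37.5 and 39.5% in B6 and 55.6, 66.7 and 65.2% in C3, and daughters 78.1, 79.2 and 72.2% in B6C3F1 and 69.6, 71.7 and 76.5% in C3B6F1. All 6 daughters were above all 6 dams, with a difference of -22.65 points for dams minus daughters (adjusted p = 0.00587). The call was lost with the dispersion of this CpG estimated alone, and in 5 of 24 fits without 1 animal, those without B6 dam 2 or 3, C3 dam 1, B6C3F1 daughter 2 or C3B6F1 daughter 2, each of which left 0 calls. Dams and daughters differ in genotype as well as in having bred, and these cannot be told apart.

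Sires and sons differed at 0 of 688 CpGs (quasi-binomial model, 34 at an unadjusted p below 0.05, against 4.49% of autosomal CpGs), against 0.0133% over the autosomes. The reciprocal crosses, B6C3F1 and C3B6F1, differed at 0 as well (43 at an unadjusted p below 0.05, against 4.69%), against 0.00568%. The sex difference differed between B6 and C3 at 0 CpGs (51 at an unadjusted p below 0.05, against 4.34%), against 0.0103%, and in 0 of 107 windows, against 0.00677%. With the dispersion of each CpG estimated alone, these 3 counts were also 0.

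Other genes of fatty acid metabolism were listed for comparison. Of 14 further Cyp4 genes 11 had a tested start region, with a median level of 29.83% (2.823 to 81.87%), and 0 were called in any comparison. Cyp4a29, Cyp4a30b and Cyp4f37 had none. At an adjusted p below 0.05 alone (quasi-binomial model), Cyp4f39 (-7.99 points, 0.000288) and Cyp4f15 (-7.91, 0.0388) were lower in B6 than in C3. Cyp4f18 (9.10, 0.00323), Cyp4f14 (5.68, 0.0493) and Cyp4f13 (3.85, 0.0118) were higher. The share of all start regions passing so was not computed. Of 25 genes of PPAR alpha and fatty acid oxidation, such as Cpt1a, which admits fatty acids to mitochondria, all had one, with a median of 8.607%, and 0 were called, against 1.68% of start regions between strains and 0.235% between dams and sires. The median B6 minus C3 difference was 0.18 points in the first list, 0.29 points in the second and -0.33 points over all genes. The median dams minus sires difference was -1.04, -0.34 and -0.15 points.

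By correlation of start regions over the 24 animals, among 122 candidate genes whose groups spanned at least 20 points, those most like Cyp4a12a were Gm11128 (r = 0.77) and Cml5 (r = 0.76) on chromosome 6 and Slc22a28 (r = 0.75) on chromosome 19. Those most like Cyp4a14 were Nkx2-6 (r = 0.88), Tmem71 (r = 0.85) and Omp (r = 0.85). These are descriptions over animals that share strain and sex. The start regions of the other members spanned less than 20 points or were not tested.

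A match to the letters TTCNNNGAA, which STAT5 can bind, was found within 302 bases around 1 of the 9 sex-called CpGs, that at 16614 bp in Cyp4a12a, whereas 9.5% of such stretches around all 1219967 listed CpGs of chromosome 4 hold one. The letters AGGTCANAGGTCA, the consensus for PPAR alpha with its partner RXR, were searched on both strands from 1000 bases before to 100 after the start and were in 0 of 6 members, against 0.117% of 21418 genes. A missing match says only that these letters were not in the stretch.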

How the data were processed

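For every CpG and animal, the deposited tables hold counts of unmethylated and methylated reads. The authors made these with Bismark (0.7.8) and Bowtie (0.12.8) on mm9, with duplicates removed, read ends clipped and libraries merged. They kept CpGs that both strains have and that most mapped bases of each strain matched, on at least a single strand. Both count tables were used as deposited (48 columns of counts, 0 others left out), as was the authors' list of bases at single-base differences, whose caller is not given in the sources used here. Every listed CpG of chromosome 4 was checked to be a CG in mm9.

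The methylation level is methylated over all counts, so depth sets its precision. Intervals and limits cover counting error only. A quasi-binomial model with 8 group means was fitted to all autosomal features, with the Pearson dispersion squeezed towards a common value and kept at 1 or above. For single CpGs the prior had infinite degrees of freedom, so each CpG was given the common value of 1.043. Its own spread between animals therefore did not enter its SE or p, which are close to those of a binomial test of reads. CpGs needed 5 reads in 2 of 3 animals of each group (called at an unadjusted p below 1e-05, with adjusted values printed). Windows of 1 kb needed 3 CpGs and 30 reads per animal, and start and whole regions 10 points, with Benjamini-Hochberg adjustment over all features. SEs come from this model, SDs from animals, and "pooled reads" means group totals. Depth was tested with limma (3.58.1, R 4.3.3), the rest in Python (3.11.15) with scipy (1.17.1). The model was tested on simulated data. The study's methods used DSS and Metilene, which were not run.

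The 6 members, the gene lists and the tests were chosen with earlier results of these data known. Named were the members, called windows, CpGs within 1 kb of a start and, for each member whose start region spanned 20 points, the 3 most correlated genes outside chromosome 4. Called CpGs farther from a start, and windows between the regions, were named after their values were seen. The 3 animals per group are separate mice.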

Additional observations from a re-analysis of the deposited data

Results flagged for a closer look

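Among 102 groups of 6 animals, 8 had an animal whose gap to the nearest other exceeded Dixon's critical value (0.625), where chance alone gives about 1 in 20. At the CpG 711 bp before Cyp4a12a, B6C3F1 daughter 1 had 54.5% where the other 5 daughters had 71.4 to 80.8%, and in the start region of Cyp4a12a the same animal had 71.1% where the others had 83.0 to 89.5%. These values share reads.

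The others were single animals at single CpGs. In Cyp4a12b, C3 dam 1 had 15.8% at 18200 bp after the start (0 to 5.88% in the other C3 parents) and B6 dam 2 had 83.3% at 26986 bp (36.8 to 52.8%). C3 sire 1 had 89.7% at 147 bp after the start of Cyp4a14 (96.2 to 100%). B6 dam 3 had 69.6% at 6573 bp after the start of Cyp4a10 (38.5 to 50%). In Cyp4a32, C3B6F1 son 2 had 41.7% at 338 bp before the start (12.5 to 22.5% in the other sons), and B6 sire 3 had 64.0% at 15441 bp after it (74.5 to 79.5%).

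The sex difference differed between the parental strains in chr4:115071001-115072000, a window of 5 CpGs that ends 12229 bp before the start of Cyp4a12b. B6 sires averaged 56.47 ± 1.62% and B6 dams 83.33 ± 4.55% (SD, n = 3), while C3 sires averaged 75.8 ± 6.24% and C3 dams 76.44 ± 2.52%. The difference of the sex differences was 26.57 points (SE 4.64, adjusted p = 0.00794, quasi-binomial model over all windows).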

How the results depend on the processing

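Of the differences printed, none that was called turned its direction under an alternative; the uncalled difference between dams and sires in the start region of Cyp4a32 went from 1.95 to -1.12 points with 500 bp either side of the start. Leaving out 1 animal at a time, called CpGs numbered 14 to 22 between B6 and C3, 3 to 6 between dams and sires, 5 to 8 between daughters and sons, and 0 to 1 for dams against daughters, for the reciprocal crosses and for the sex difference between strains; strain-called windows numbered 2 to 3, and start regions 0 to 1 between dams and sires and 1 to 1 between strains. Every one of the 24 such fits called 12 of 20 strain CpGs, 3 of 5 CpGs of dams and sires and 5 of 7 of daughters and sons. With the dispersion of each CpG estimated alone (16 degrees of freedom), 2 CpGs remained between strains, 2 between dams and sires, 3 between daughters and sons and 0 between dams and daughters: in Cyp4a12a those at 711 bp before and 16614 and 24139 bp after the start, in Cyp4a12b that at 18200 bp, and in Cyp4a14 that at 1206 bp.

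At p below 1e-04 the counts were 31 between strains, 10 between dams and sires, 2 between dams and daughters and 2 for the sex difference between strains. At an adjusted p below 0.05 they were 41, 11 and 2 for the first 3. Autosomal shares were not computed for these settings, for windows at 10 points or for each CpG's own dispersion. Whether the excess over the autosomes held there was thus not tested. Requiring 10 reads in every animal left 575 CpGs, with 3 calls between dams and sires and 5 between daughters and sons, and removed the Cyp4a12a CpGs at 711 bp before and 24139 bp after the start, whose lowest depths were 7 and 8 reads. Strain-called windows fell to 1 with 100 reads per animal and to 1 with 500 nt windows of 5 CpGs, of which the regions held 35, and rose to 9 at 10 points, where 2 were called between dams and sires and 1 between daughters and sons. Between dams and sires 0 start regions were called with 10 reads per CpG in every animal or with 500 bp either side of the start, where that of Cyp4a12a had too few CpGs or reads for a test, and 0 from 2 kb before to 500 bp after it, where it differed by 6.11 points (adjusted p = 0.243). Over that last stretch the strain call of Cyp4a14 was lost (-6.7 points, adjusted p = 0.0348) and Cyp4a12b was called in its place (-12.31 points, adjusted p = 0.0127); the cause was not tested.

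The labels number animals 1 to 3 in each group. Deviations of same-numbered animals of other groups correlated at -0.0137 to 0.0749 (median 0.00429). Those of other-numbered animals correlated at -0.0421 to 0.02 (median -0.00204). Of 24 animals, 18 correlated best with their own number, more than an even spread over the numbers would give. The correlations were thus weak but tended to follow the number, and what the number stands for was not tested. A limma fit with the replicate number as a block changed no call of windows, start or whole regions or depth, and was not run on single CpGs; the start region of Cyp4a12a then had an adjusted p of 0.00605 between dams and sires, against 0.0352 without it. The called CpGs had 7 to 59 reads per animal, which limits the precision of each level.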
